A study of Mus musculus with 18 samples.

Results

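The ovary of a 5-month-old LHCTP transgenic hybrid mouse, described by its label as a luteoma, was set against the ovary of a wild-type hybrid of the same age. The pair was chosen by the sample titles and holds 4 of the series' 18 arrays, 1 luteoma and 1 wild-type array on each of 2 oligonucleotide chip types, called A and B here. Both animals were CF-1xC57BL/6 F1 hybrids, and no treatment is named for either. The labels describe LHCTP mice as hypersecreting luteinizing hormone (LH). As background, the transgene encodes a stabilised LH beta subunit and is driven from a pituitary promoter, so that the ovary responds to hormone made elsewhere. The labels give no cycle stage, number of animals or pooling. With 1 array per chip type a side there is no spread between animals and no test, and every comparison below is one of size only.

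The other conditions served as context. These were a cystic ovary of a 2-month-old LHCTP hybrid, a 5-month-old CF-1 LHCTP ovary treated with human chorionic gonadotropin (hCG), whose label also says luteoma, a granulosa cell tumour of a 5-month-old CF-1 LHCTP mouse, a cystic ovary of a 2-month-old CF-1 LHCTP mouse, and wild-type ovaries of a 2-month-old hybrid and of CF-1 mice of 5 and 2 months. The description of the tumour's chip B array gives an age of 2 months where its title gives 5, and the title was followed.

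LH drives ovulation and turns the follicle's granulosa and theca cells into the corpus luteum, a gland rich in blood vessels that makes progesterone from cholesterol. Growing follicles instead secrete inhibins and activins, dimers of alpha and beta subunits, and anti-Müllerian hormone, and they enclose oocytes. A luteoma is a mass of luteinised, steroid-producing cells.

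Levels are intensities scaled to a common trimmed mean within a chip type and are given in units. A floor, below which values were not told apart, lay at 183.8 units on chip A and 290.7 units on chip B. A probe set was measured when it reached 2 floors on at least 2 of the 9 arrays of its chip type, which left 6408 probe sets. It was called higher or lower when the pair differed at least 3-fold after values were raised to the floor. Where the weaker side lay under the floor the fold is given as at least its size. By this rule 137 of 6408 probe sets (2.14%) were higher in the luteoma and 109 (1.7%) were lower. At 2-fold the counts were 421 (6.57%) higher and 530 (8.27%) lower, around a median log2 difference of -0.07 over all probe sets. The weaker side lay under the floor in 53 of the 137 and in 48 of the 109. Another normalization, cyclic loess, gave 172 higher and 73 lower, so that 70.2% of the calls were higher in place of 55.7%. The size of the split between higher and lower calls therefore depends on how the arrays were brought to a common level, although higher calls were the majority under each scaling. The floor turned the split: at 0.5 times its height 244 were higher and 284 lower.

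**Figure D1:**
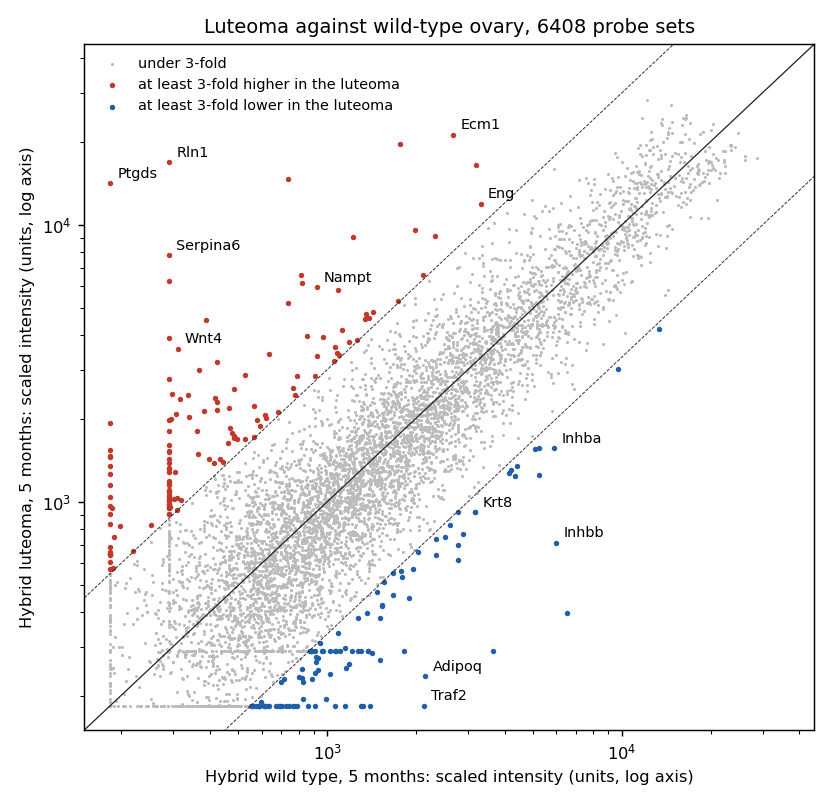
Scaled intensity of the 6408 measured probe sets in the hybrid luteoma (vertical, units, log axis) and in the hybrid wild type of 5 months (horizontal, units, log axis), with values under the floor drawn at it. The solid line marks equal levels and the dashed lines a 3-fold difference; 137 red points lie above and 109 blue points below, and Ptgds, Rln1 and Serpina6 stand farthest above among the named genes.

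Because a single wild-type ovary can be unusual, each called probe set was also held against the other 3 wild-type conditions. The luteoma stood at least 2-fold above all 4 wild types in 41 of the 137 higher probe sets (0.64% of all measured) and at least 2-fold below all 4 in 23 of the 109 lower ones (0.359%). These are called beyond all 4 wild types below. Of the probe sets, 25 and 14 have 1 gene symbol in the annotation.

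Promoters of 4 higher genes beyond all 4 wild types are shown: Ptgds, Rln1 and Wnt4, which are among the largest differences and encode secreted proteins, and Alas2, the one of the 18 such genes with a promoter in the table that holds an NR5A match. Each sequence is the coding-strand stretch from 250 bases before to 50 bases after the gene's start in RefSeq on GRCm38.p6. Ptgds lies at chr2:25469700-25469999 (minus strand), Rln1 at chr19:29334621-29334920 (minus strand), Wnt4 at chr4:137277385-137277684 (plus strand) and Alas2 at chrX:150547167-150547466 (plus strand). Capitals mark letters of 3 motifs searched on both strands: AAGGTCA (NR5A, the family of the steroidogenic factors), TGACG (the core of the cAMP response element) and TATAAA (the TATA box).
Ptgds: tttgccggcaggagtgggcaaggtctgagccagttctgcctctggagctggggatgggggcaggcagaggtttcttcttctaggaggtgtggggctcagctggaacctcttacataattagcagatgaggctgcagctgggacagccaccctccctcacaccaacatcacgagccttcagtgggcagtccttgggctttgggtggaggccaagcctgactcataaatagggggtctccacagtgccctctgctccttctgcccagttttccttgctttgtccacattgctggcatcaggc
Rln1: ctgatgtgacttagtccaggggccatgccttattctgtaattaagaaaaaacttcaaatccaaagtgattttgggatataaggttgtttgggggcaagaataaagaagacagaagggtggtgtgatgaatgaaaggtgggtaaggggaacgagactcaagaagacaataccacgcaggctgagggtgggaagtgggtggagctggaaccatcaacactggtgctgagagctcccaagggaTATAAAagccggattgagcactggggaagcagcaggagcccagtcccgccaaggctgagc
Wnt4: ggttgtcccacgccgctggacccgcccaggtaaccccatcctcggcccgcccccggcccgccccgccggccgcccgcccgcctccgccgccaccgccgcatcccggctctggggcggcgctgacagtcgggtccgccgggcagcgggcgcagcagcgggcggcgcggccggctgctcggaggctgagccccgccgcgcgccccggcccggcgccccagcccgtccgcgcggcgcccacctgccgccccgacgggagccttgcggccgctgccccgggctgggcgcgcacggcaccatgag
Alas2: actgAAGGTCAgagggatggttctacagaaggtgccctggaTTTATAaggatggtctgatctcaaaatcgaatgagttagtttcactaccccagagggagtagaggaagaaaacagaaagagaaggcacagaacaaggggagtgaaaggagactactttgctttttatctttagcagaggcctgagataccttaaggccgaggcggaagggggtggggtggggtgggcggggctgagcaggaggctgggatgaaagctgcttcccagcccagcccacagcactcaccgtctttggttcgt
Rln1 holds TATAAA on its own strand, and Alas2 holds AAGGTCA on its own strand and TATAAA on the other, printed as its reverse complement, while none of the 3 motifs is written in the Ptgds and Wnt4 windows. Promoters were in the table for 64 of 80 higher genes, 45 of 58 lower genes and 3147 of 3916 measured genes, with 1 probe set a gene. AAGGTCA was found in 4 higher genes (6.25%), 1 lower gene (2.22%), 3.75% of measured genes and 4.66% of all 27025 promoters in the table. TGACG was found in 29.7% of higher genes, 24.4% of lower genes, 33.1% of measured genes and 21% of all promoters. TATAAA was found in 9 higher genes (14.1%), 9 lower genes (20%), 8.39% of measured genes and 14.2% of all promoters. A match is a run of letters and not a bound site.

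Rln1, the ovarian hormone relaxin, had 16825 units in the luteoma, against 82.8 units in the wild type, and was at least 57.9-fold higher. Its level was 14761 units in the hybrid cystic ovary, 3450.4 in the CF-1 cystic ovary, 359 in the hCG-treated ovary and 21.8 in the tumour. The other 3 wild types, in the order hybrid of 2 months, CF-1 of 5 months and CF-1 of 2 months, had 117, 473 and 38.6 units. The luteoma and both cystic ovaries were thus high, and the hCG-treated ovary, although also labelled luteoma, lay within the wild-type range.

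Ptgds, the synthase of prostaglandin D2, had 14122 units in the luteoma, against 76.8 units in the wild type (at least 76.8-fold). The hybrid cystic ovary had 4392 units, the hCG-treated ovary 1653, the CF-1 cystic one 1317, and the tumour a value below 0 (-199 units). The other 3 wild types had 669, 773 and 61.3 units. Serpina6, the plasma carrier of glucocorticoids and progesterone, had 7759 units in the luteoma, against 31.4 units in the wild type (at least 26.7-fold), and 1648 and 1135 units in the hybrid and CF-1 cystic ovaries. All 4 wild types lay under the floor for Serpina6, so that its fold is a lower bound against each of them.

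Wnt4, a secreted signal of ovarian differentiation, had 3574 units in the luteoma, against 311 units in the wild type (11.5-fold). A second Wnt4 probe set gave a log2 difference of 3.55, beside 3.52 for the first. Wnt4 stood at 2318 units in the CF-1 cystic ovary, 1977 in the hybrid cystic ovary and 726 in the hCG-treated ovary, and was under the floor in the tumour. The median over the 19 measured Wnt pathway genes was -0.01, and its sign changed with the scaling. Ecm1, a secreted matrix glycoprotein, had 21173 units in the luteoma, against 2683 units in the wild type (7.89-fold). It was also high in the hybrid cystic ovary (18508 units) and the CF-1 cystic ovary (16376 units), and the wild types had at most 5204 units.

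Further genes beyond all 4 wild types had enzymatic or signalling roles. Gsta3, a glutathione S-transferase, had 6178 units in the luteoma, against 823 units in the wild type (7.50-fold), and 5043 units in the hCG-treated ovary. Nampt, the enzyme of NAD salvage, had 5952 units in the luteoma, against 922 units in the wild type (6.46-fold). Snap91, a clathrin assembly protein of nerve endings, had 1929 units in the luteoma, against 46.9 units in the wild type (at least 10.5-fold). These 3 genes were higher in the luteoma than in any of the other 8 conditions. Rxrb, a retinoid X receptor, had 2778 units in the luteoma, against 122 units in the wild type (at least 9.56-fold), but the other 3 wild types had 1153, 1063 and 781 units. Its hybrid wild-type level of 5 months was therefore the low one among wild types. Socs3, an inhibitor of cytokine signalling, had 1283 units in the luteoma, against 306 units in the wild type (4.20-fold), and Cx3cl1, a membrane-bound chemokine, was at least 4.91-fold higher.

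Alas2, the erythroid enzyme that starts haem synthesis, had 2081 units in the luteoma, against 306 units in the wild type (6.79-fold). The other LHCTP ovaries had 2443 units (hybrid cystic), 1576 (hCG-treated), 798 (tumour) and 1561 (CF-1 cystic), against 485, 309.6 and 461 units in the other 3 wild types. All the LHCTP ovaries were above the wild types. The summed level of the 3 erythroid markers on the chips, which include Alas2, was 22099 units in the luteoma and 26568 units in the wild type.

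Not all large differences were beyond the other wild types. Vcam1, an adhesion molecule, had 2361 units in the luteoma, against 318 units in the wild type (7.43-fold), yet 3685 units in the CF-1 wild type of 5 months. Cd300c2, a myeloid receptor, had 1462 units in the luteoma, against 111 units in the wild type, and the CF-1 wild type of 5 months had 1693. Cited1, a transcriptional coactivator, had 2437 units in the luteoma, against 337 units in the wild type, and the hybrid wild type of 2 months had 2601. In these 3 genes at least 1 wild type was above the luteoma.

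**Figure D2:**
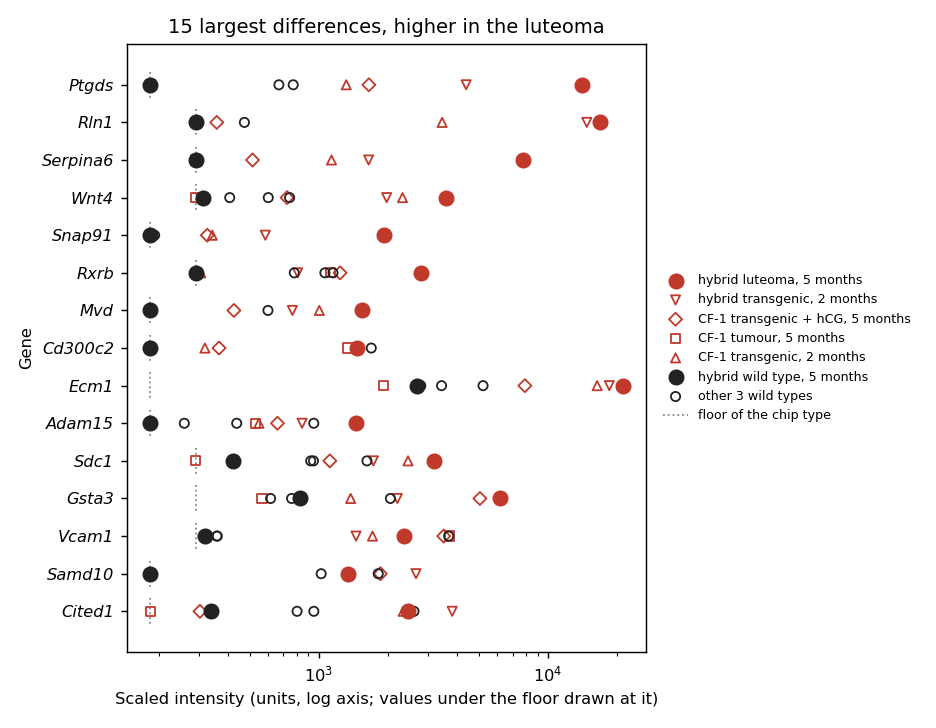
Scaled intensity (horizontal, units, log axis) of the 15 genes with the largest higher differences in the luteoma, 1 row a gene, in all 9 conditions. The filled red point is the luteoma and the filled black point its wild type; open red symbols are other LHCTP ovaries, open black points other wild types, and dotted marks the floor, at which lower values overlap. Ptgds, Rln1, Serpina6, Wnt4 and Ecm1 are highest in the luteoma, while Cd300c2, Vcam1, Samd10 and Cited1 have a wild type above it.

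Cholesterol synthesis genes stood higher as a group. Of 9 measured genes, 8 were above the wild type of 5 months, 4 at least 2-fold and 2 at least 3-fold, with a median log2 difference of 0.87 beside -0.07 over all probe sets. Mvd, which decarboxylates mevalonate diphosphate, had 1537 units in the luteoma, against -24.4 units in the wild type (at least 8.36-fold). Sqle, squalene epoxidase, had 4555 units in the luteoma, against 1343 units in the wild type (3.39-fold). Hmgcs1, the first step toward mevalonate, had 17619 units in the luteoma, against 9655 units in the wild type, which is 1.82-fold and under the rule, and its second probe set had a log2 difference of -0.15. The list's median lay between 0.40 and 0.87 against each of the 4 wild types. In the comparisons of the other LHCTP ovaries with their own wild types it was 0.49 in the hybrid cystic ovary, 0.74 in the CF-1 one, 0.27 in the hCG-treated ovary and -0.86 in the tumour.

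Steroid synthesis genes did not stand apart by this rule. None of the 15 measured was called at 3-fold and the median was 0.10, with a sign that changed with the scaling. Star, which carries cholesterol into mitochondria, had 12108 units in the luteoma, against 11263 units in the wild type. Cyp11a1, the side-chain cleavage enzyme, had 23382 units in the luteoma, against 13544 units in the wild type, and Cyp17a1, the androgen-producing enzyme, had 9578 units in the luteoma, against 4373 units in the wild type (2.19-fold). The level of Cyp17a1 was the highest of the 9 conditions. Hsd3b1, which makes progesterone from pregnenolone, had 1664 units in the luteoma, against 3612 units in the wild type (2.17-fold lower), beside 39328 units in the hCG-treated ovary and 16166, 22977 and 21960.2 units in the other 3 wild types. The pair's wild type was itself the low one among the wild types for Hsd3b1. The 4 luteal markers on the chips (Star, Cyp11a1, Hsd3b1 and Ptgfr) summed to 48453 units in the luteoma, against 36372 units in its wild type and 36372 to 78781 units over the 4 wild types. The sum thus lay within the wild-type range, while Hsd3b1 alone lay at least 2.17-fold below every wild type. The wider list of 10 luteal and LH response genes had a median of 0.60, and Cited1 was its 1 called gene.

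Activin and inhibin beta subunits were lower. Inhbb, the beta B subunit, had 711 units in the luteoma, against 5987 units in the wild type (8.42-fold lower), and 5454, 4135 and 4839 units in the other 3 wild types, and it lay beyond all 4. It had 1331 units in the hybrid cystic ovary, 1331 in the hCG-treated ovary, 1190.2 in the CF-1 cystic ovary and 10279 in the tumour. Inhbb was thus low in 4 of the 5 LHCTP ovaries and highest in the tumour. Inhba, the beta A subunit, had 1562 units in the luteoma, against 5891 units in the wild type (3.77-fold lower), and 12028 units in the tumour. Inha, the alpha subunit shared by both inhibins, had 12184 units in the luteoma, against 10402 units in the wild type, a 1.17-fold difference that is under the rule.

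The 15 measured granulosa and growing follicle genes had a median of -0.53, with 5 at least 2-fold lower, 2 of them (Inhba and Inhbb) called at 3-fold, and none at least 2-fold higher. Fst, follistatin, the protein that binds activin, had 797 units in the luteoma, against 2234 units in the wild type. Amh, anti-Müllerian hormone, had 837 units in the luteoma, against 1704 units in the wild type. The median was between -0.53 and -0.41 against each of the 4 wild types. Ihh, a hedgehog ligand of granulosa cells, had 55 units in the luteoma, against 791 units in the wild type (at least 4.30-fold lower), and 2049 units in the tumour. In whole ovary, fewer cells of a type and less RNA per cell cannot be told apart.

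Oocyte and proliferation genes were lower than in 3 of the 4 wild types only. Of 9 oocyte genes, 5 were at least 2-fold lower, 1 was at least 2-fold higher and 1, Zp3 of the egg coat, was called, with 460.1 units in the luteoma, against 1669.9 units in the wild type. Zp2, also of the egg coat, had 669 units in the luteoma, against 1977 units in the wild type. The oocyte median was -1.16 against the wild type of 5 months, -1.28 against the hybrid of 2 months, -1.10 against CF-1 of 2 months and 0.07 against CF-1 of 5 months. Under other floors and filters the first of these came to as little as -0.47. Of 25 proliferation genes, 9 were at least 2-fold lower, 1 at least 2-fold higher and none called, with a median of -0.76. Against the CF-1 wild type of 5 months that median was -0.03. Prc1, a cytokinesis protein outside that list, had 127 units in the luteoma, against 908 units in the wild type and 99 units in the CF-1 wild type of 5 months.

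Endothelial genes stood higher against each wild type. Of 12 measured, 5 were at least 2-fold and 4 at least 3-fold higher. The median was 0.94, and medians were 0.62 to 0.94 over the 4 wild types. In the other LHCTP ovaries against their own wild types the median was 0.44 (hybrid cystic), 0.42 (CF-1 cystic), -0.05 (hCG-treated) and -0.53 (tumour). The mean log2 level of the list was 10.60 in the CF-1 cystic ovary and 10.54 in the luteoma. Eng, endoglin, a co-receptor for TGF-beta, had 11920.0 units in the luteoma, against 3315 units in the wild type (3.60-fold). Kdr, the main VEGF receptor, had 3357 units in the luteoma, against 922 units in the wild type (3.64-fold), and Tie1, a receptor-like kinase of vessels, had 2547 units in the luteoma, against 483 units in the wild type (5.27-fold). These 3 were higher in the luteoma than in any of the other 8 conditions, although none was 2-fold above all wild types. Procr, the protein C receptor, had 950.0 units in the luteoma, against 186 units in the wild type, but 1032 units in the CF-1 wild type of 2 months. Cd34 and Emcn went the other way, with log2 differences of -0.68 and -0.94.

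Macrophage genes also stood higher than in the hybrid wild type. The 18 measured had a median of 0.60, with 6 at least 2-fold higher and 1 called, the macrophage gene Mpeg1 (2848 units in the luteoma, against 906 units in the wild type). Lyz2, lysozyme, had 28289 units in the luteoma, against 12158 units in the wild type, and the CF-1 wild type of 5 months had 33432. The median turned to -0.51 against the CF-1 wild type of 5 months. The 9 macrophage markers summed to 50203 units in the luteoma, against 32517 units in its wild type and 26919 to 75387 over the 4 wild types, so that the luteoma lay within the wild-type range.

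Epithelial and oviduct genes were lower. Of 22 epithelial and oviduct genes, 14 were at least 2-fold lower and 7 were called lower. The median was -1.26, and medians were -1.26 to -0.53 over the wild types. In the other LHCTP ovaries against their own wild types it was -1.18 (hybrid cystic), -1.18 (CF-1 cystic), -0.0006 (hCG-treated) and -1.23 (tumour). Dcpp1 had 54.8 units in the luteoma, against 1305 units in the wild type (at least 7.10-fold lower), and Ltf, lactotransferrin, had 247 units in the luteoma, against 1819.5 units in the wild type (at least 6.26-fold lower). Both lay beyond all 4 wild types. Krt8, a keratin of simple epithelia, had 919 units in the luteoma, against 3180.1 units in the wild type (3.46-fold lower), and its second probe set gave a log2 difference of -1.87. Foxj1, the regulator of motile cilia, had 239 units in the luteoma, against 1025 units in the wild type and 156 units in the CF-1 wild type of 5 months. The 7 defining epithelial and oviduct markers summed to 10378 units in the luteoma, against 24805 units in its wild type and 19104 to 29264 over the 4 wild types; Pax8 was under the floor in the luteoma. The part of adjoining tissue in the lower calls was not tested.

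Adipocyte genes had a median of -1.68 over 7 measured genes, with 5 at least 2-fold and 4 at least 3-fold lower. The median came to -0.84 under another scaling and to -0.55 under another floor or filter, so that its size depends on the processing. Lipe, the hormone-sensitive lipase, went the other way and was 2.97-fold higher, just outside the rule. In the other LHCTP ovaries against their own wild types the list median was -1.30 (hybrid cystic), -0.08 (CF-1 cystic), -1.28 (hCG-treated) and -2.81 (tumour). Adipoq, adiponectin, had 235 units in the luteoma, against 2156 units in the wild type (9.19-fold lower). Car3, a carbonic anhydrase abundant in fat, had 164 units in the luteoma, against 1401 units in the wild type (at least 7.62-fold lower). Both lay beyond all 4 wild types. Retn, resistin, had 696 units in the luteoma, against 2774 units in the wild type, and Fabp4, a fatty acid carrier, had 732 units in the luteoma, against 2349 units in the wild type. The pair's wild type had the highest adipocyte sum of the 4 wild types for the 3 markers on the chips, 5906 units against a lowest of 1511, with 1130.3 units in the luteoma. The part of fat left on the dissected ovary was not tested. Smooth muscle genes had a median of -0.85 over 8 genes, and 0.01 against the CF-1 wild type of 5 months.

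**Figure D3:**
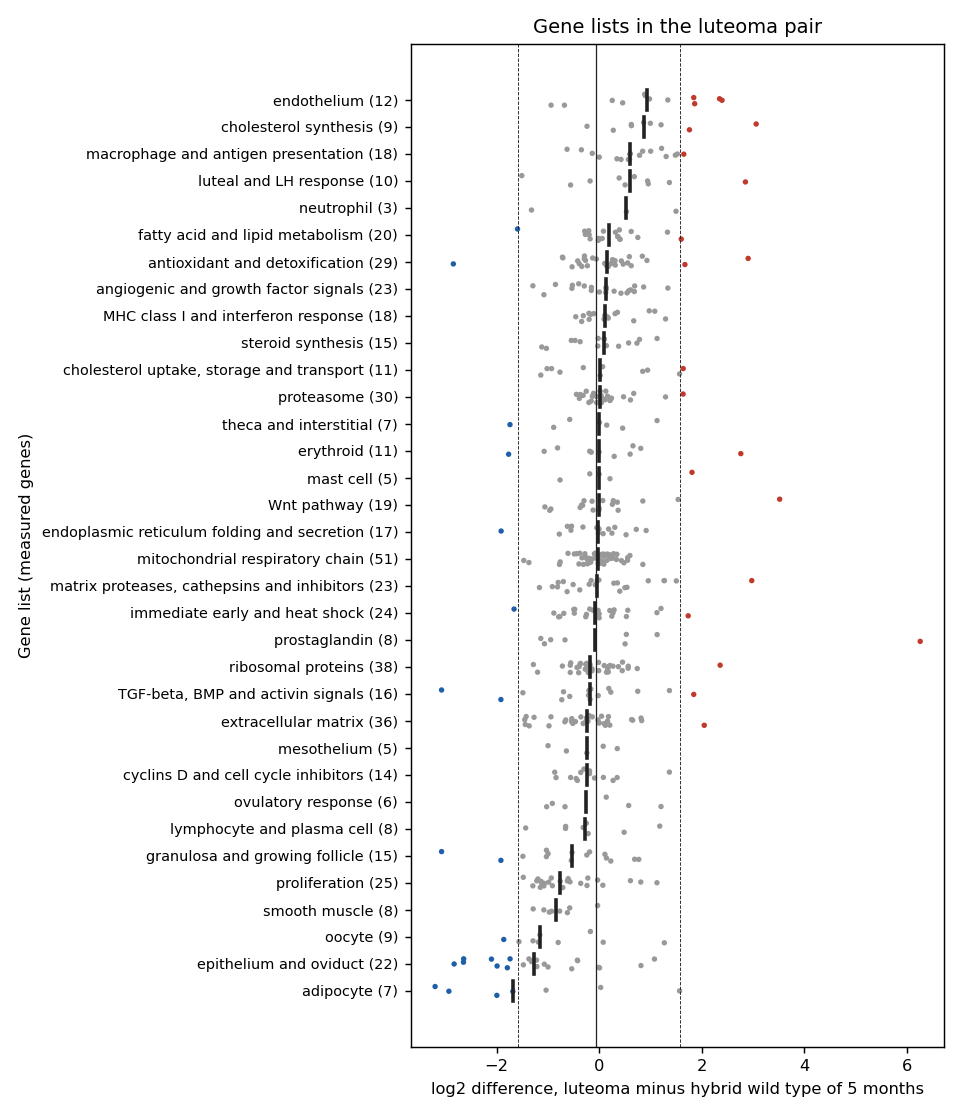
Log2 difference of the luteoma from the hybrid wild type of 5 months (horizontal) for each measured gene of the 34 lists, with the number of measured genes in brackets. Black bars are list medians, the solid line is the median of all probe sets and dashed lines are 3-fold; red and blue points passed the 3-fold rule. Endothelium and cholesterol synthesis lie at the top and the adipocyte, epithelium and oviduct, and oocyte lists at the bottom.

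**Figure D4:**
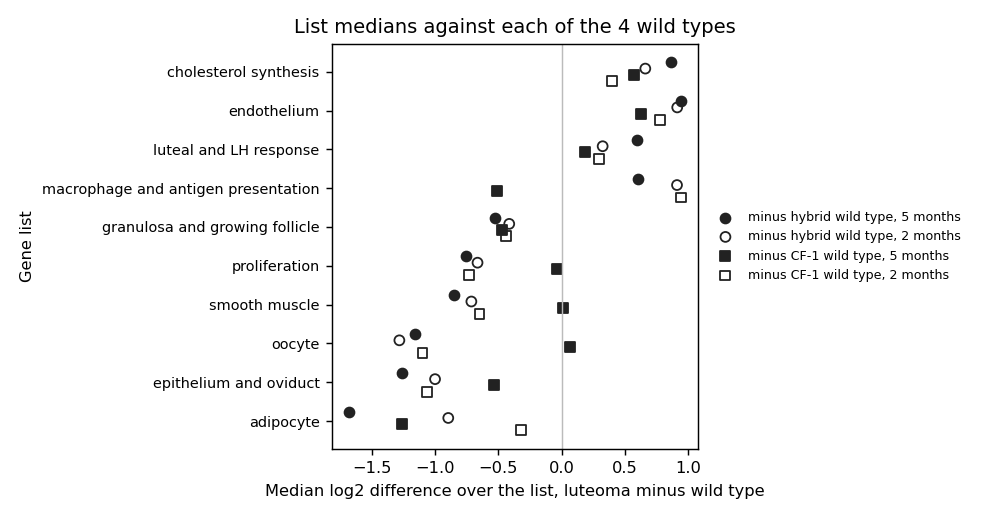
Median log2 difference (horizontal) of the luteoma from each of the 4 wild types for 10 lists; filled symbols are wild types of 5 months and open symbols of 2 months, circles hybrid and squares CF-1. Cholesterol synthesis, endothelium and luteal genes are positive against each wild type, while macrophage, oocyte and proliferation medians are near 0 or turn against the CF-1 wild type of 5 months.

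The other 24 lists had medians between -0.28 and 0.53. A pair of genes that belong to none of the lists were among the largest lower differences. Traf2, an adaptor of tumour necrosis factor receptors, had -105 units in the luteoma, against 2126 units in the wild type (at least 11.6-fold lower), and 2210.5, 5942 and 1286 units in the other 3 wild types. Xist, the RNA of X inactivation, had 268 units in the luteoma, against 1507 units in the wild type (5.61-fold lower), while both cystic ovaries had 260.2 (hybrid) and 297 (CF-1) units and the CF-1 wild type of 2 months 317. Traf2 lay beyond all 4 wild types and Xist did not.

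**Figure D5:**
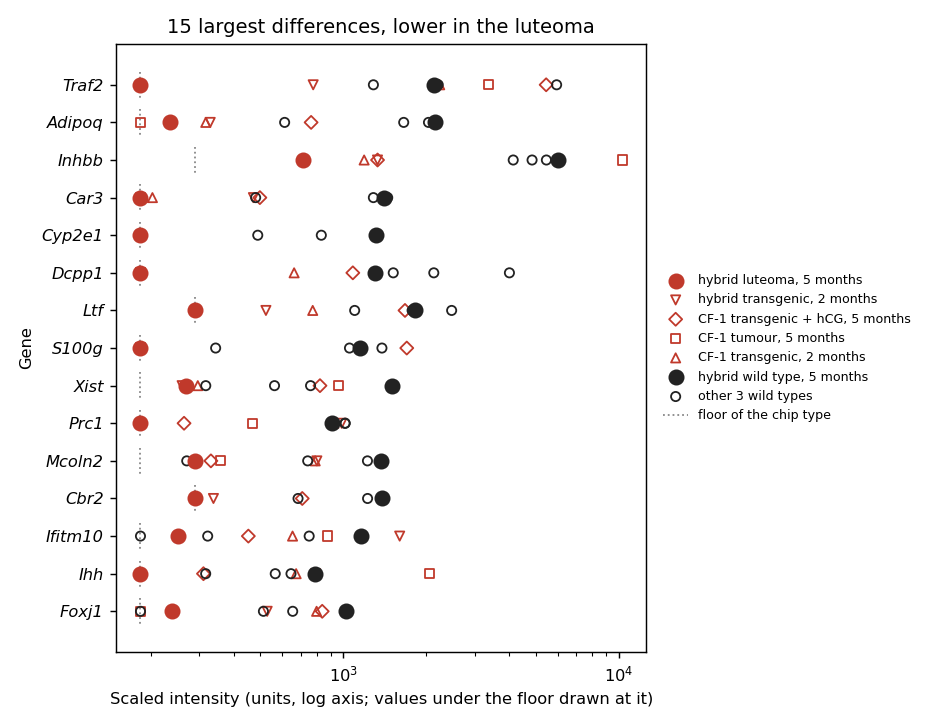
Scaled intensity (horizontal, units, log axis) of the 15 genes with the largest lower differences in the luteoma, 1 row a gene, in all 9 conditions. The filled red point is the luteoma and the filled black point its wild type; open symbols are the other LHCTP ovaries (red) and wild types (black), and dotted marks the floor. Traf2 and Inhbb are lowest in the luteoma of all conditions, and Cyp2e1, Prc1 and Cbr2 have a wild type at the floor too.

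Set against pairs that share no array with it, the luteoma pair shared more of its higher calls with each cystic pair than with others. Taken as a share of the other pair's own lower calls, the CF-1 cystic pair came above the tumour pair. By count, the luteoma pair instead shared more lower calls with the tumour pair than with the CF-1 cystic one. Of its 137 higher probe sets 25 were also called higher in the hybrid cystic pair (18.2% of the 137 and 34.7% of the 72 called there, which are 1.12% of those measured), and of its 109 lower ones 18 were called lower there (16.5%, and 25.4% of 71, 1.11%). The CF-1 cystic pair shared 16 of its 45 higher calls (0.702% of those measured), which is 11.7% of the luteoma pair's calls and 35.6% of its own. It shared 7 of its 34 lower calls (0.531%), or 6.42% and 20.6%. The hCG-treated pair, whose label also says luteoma, shared 4 of its 121 higher calls (1.89% of those measured), or 2.92% of the luteoma pair's and 3.31% of its own, and 6 of its 112 lower calls (1.75%), or 5.50% and 5.36%. The tumour pair shared 2 of its 94 higher calls (1.47%), or 1.46% and 2.13%, and 13 of its 189 lower calls (2.95%), or 11.9% and 6.88%. At 2-fold, 31 of the luteoma's 137 higher probe sets were lower in the hCG-treated pair, where 6.98% of all measured were, and 19 were higher, where 7.38% of all were. In the tumour pair 33 were lower (7.1% of all) and 9 higher (5.04%). In the hybrid cystic pair 10 were lower (4.43%) and 44 higher (4.35%), and in the CF-1 cystic pair 6 were lower (2.79%) and 35 higher (2.95%). The hCG-treated and tumour pairs share a wild type, CF-1 of 5 months, with each other but not with the luteoma pair. That wild type and the tumour both stood at least 2-fold to the luteoma's side of the hybrid wild type in some calls. These were 63 of the 137 higher and 46 of the 109 lower probe sets. The calls were chosen by the value of that same hybrid wild type, and the share over all measured probe sets was not taken. The counts alone therefore do not show that the 2 arrays resemble the luteoma. The part of these probe sets in the overlaps with the hCG-treated and tumour pairs was not tested.

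Of the called probe sets, 51 higher and 33 lower have no single symbol in the annotation and stay unnamed here. The largest unnamed differences were 21.6-fold (at least), 20.02-fold and 11.1-fold higher, and 16.4-fold lower. At the edge of the rule, Ephb6 (3.02-fold) was just inside and Sh3bp1 (2.99-fold) just outside on the higher side, and Terf2ip (3.001-fold) and Mxi1 (2.997-fold) on the lower side. Of 42 comparisons between a called probe set and another probe set of its gene, 36 had the same sign and 12 were also at least 2-fold. In 4 of the 42, which are the Krt8 and Wnt4 probe sets counted from either side, the other probe set was called alike.

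Before scaling, the chip A trimmed mean was 1164 units in the luteoma and 1756 units in the wild type, the brightest chip A array of the 9. On chip B it was 921 units in the luteoma and 727 units in the wild type. For 16 probe sets present and detected on both chips, the pair's log2 difference was higher on chip A in 13. The median gap was 0.48 (range -0.80 to 0.78), so that differences near that size are not well fixed. Most of the 16 are control probe sets, with several each for Gapdh and beta-actin, so they cover fewer than 16 transcripts. Others are controls for bacterial or phage sequences (BioC, BioDn and CreX), which measure no mouse gene. Their gaps were 0.39 to 0.78, all higher on chip A, so the median gap is in part not one of ovary RNA. The SD of the gap over all 16, 0.42, is the measure used further below for named genes. It is taken about the mean gap, so it leaves out the shift toward chip A and is no bound on technical error. An opposite-strand control probe set, which measures no mouse gene, had 812 units in the luteoma and 369 in the wild type on chip A. On chip B it had 719 units in the luteoma and 121 in the wild type. The tumour and the CF-1 wild type of 5 months had 782 and 768 units on chip A and 533 and 531 on chip B. The remaining conditions, with the pair's wild type, had 194 to 387 and 51 to 330 units. The luteoma, the tumour and that CF-1 wild type thus stood together in it. The part of these differences in the calls was not tested, and with 1 array a side array and genotype cannot be told apart.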

How the data were processed

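Ovary RNA was measured on 2 chip types, with 1 array of each for each of 9 conditions. The deposited intensity values are linear, some below 0, and the authors' software and scaling were not stated in any label or file used here. Groups come from the sample titles. The members and gene lists were chosen with earlier results of these data known. Arrays were scaled within a chip type to a common trimmed mean (2nd to 98th percentile), raised to the floor and taken to log2, which understates differences of low probe sets. The floor is a median over a chip type's arrays, each giving its 25th percentile or the size of its 5th, whichever is larger. Chip A holds 6584 probe sets and chip B 6595; 76 present on both were left out, 55 of them controls, and 4122 and 2286 were measured. The annotation gave 1 symbol to 5560 and 2001 probe sets, several to 197 and 27, and none to 827 and 4567. Symbols were updated through gene models of GRCm38.p6. A gene was represented by its probe set with the highest mean.

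The genes named are the 15 largest differences on either side and, in each of 34 lists with at least 3 measured genes, the called members and the 4 with the highest mean. Genes beyond all 4 wild types, the lowest members of lists and Fst, Amh, Zp2, Cyp17a1 and Hsd3b1 were picked out after their values were seen. The array number limits precision: with 1 array a side no error can be given. Alternatives were the floor, fold, filter, normalization (quantile, cyclic loess), wild type used and chip type. Analysis used Python 3.11.15, pandas 2.3.3, numpy 2.4.6, statsmodels 0.14.6 and matplotlib 3.10.9.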

Additional observations from a re-analysis of the deposited data

Results flagged for a closer look

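For 10 genes the luteoma differed at least 3-fold from its hybrid wild type in one direction while the CF-1 granulosa cell tumour differed at least 3-fold from the CF-1 wild type of 5 months in the other. The pairs share no array, and the difference between them was not tested. In the tumour pair 1.47% of the 6408 measured probe sets were called higher and 2.95% lower. The share of all called genes that these 10 make up was not taken. The count therefore does not show that opposite calls were more frequent than those rates would give. Higher in the luteoma and lower in the tumour were Ptgds, with log2 differences of 6.26 and -2.07, Gsta3 (2.91 and -1.86), Sdc1, a cell surface proteoglycan (2.91 and -1.66), Samd10 (2.87 and -3.30), Cited1 (2.85 and -2.37), Sqle (1.76 and -2.10) and Dusp1, a phosphatase of stress kinases (1.74 and -3.24). Lower in the luteoma and higher in the tumour were Ifitm10 (-2.21 and 2.25), Ihh (-2.11 and 2.69) and Inhba (-1.92 and 1.97). Cited1, Samd10 and Ifitm10 had at least 1 wild type beyond the luteoma.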

How the results depend on the processing

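The counts of 137 higher and 109 lower probe sets, of which 41 and 23 were beyond all 4 wild types, depended on the floor, the fold, the wild type used and the detection limit. With the floor at 0.5 times its height they were 244, 284, 65 and 68. Double the floor gave 77 and 44, with 8 lower ones beyond all 4 wild types, and a floor of 20 units gave 206 and 232, with 94. A 2-fold rule gave 421, 530, 62 and 49, and a 4-fold rule 65 and 32, with 11 lower ones beyond all 4. Chip A alone gave 61 and 72, with 19 higher ones beyond all 4, and chip B alone gave 76, 37, 22 and 7. With the CF-1 wild type of 5 months in place of the hybrid one 54 were higher, and with the mean of the 4 wild types 58 and 46. Quantile normalization gave 154 and 89 and cyclic loess 172 and 73. A pair of alternatives was chosen after seeing the data. Without probe sets in which the CF-1 wild type and tumour of 5 months both stood at least 2-fold to the luteoma's side of the hybrid wild type, 74 and 63 remained. With both arrays at or above the detection limit the counts were 50, 28, 17 and 5. Of 57 called genes that the text's rule names, 12 moved by less than 0.42 on the log2 scale (the SD of the gap between chip types) when that CF-1 wild type was used, 34 moved by more without changing sign, and 11 changed sign, with log2 differences of 0.13 for Car2, -0.21 for Cd300c2, 0.0223 for Enpep, 0.38 for Foxj1, 0.45 for Ifitm10, 0.10 for Mcoln2, -0.16 for Mpeg1, -0.84 for Rpl41, -0.44 for Samd10, -0.64 for Vcam1 and 0.21 for Zp3. Cited1 changed to -0.0939 against the hybrid wild type of 2 months. The cause was not tested. No paired analysis was possible because each condition has 1 array per chip type, and for the same reason no array could be left out. Signal over background limits the rest: the weaker side was under the detection limit in 87 of the 137 and 81 of the 109.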

Other observations

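Further genes beyond all 4 wild types had roles outside the groups above, and all were chosen after their values were seen. Higher in the luteoma were Aoc1, which breaks down histamine (3455 units in the luteoma, against 1078 units in the wild type), Man1a, a mannosidase of protein glycosylation (1886 units in the luteoma, against 593 units in the wild type), and Pgs1, an enzyme of cardiolipin synthesis (2577 units in the luteoma, against 767 units in the wild type). Ccn1, a secreted matricellular protein, had 821 units in the luteoma, against 198 units in the wild type. Cpa3, a carboxypeptidase of mast cells, had 645 units in the luteoma, against -8.71 units in the wild type. Of the other mast cell markers, Tpsb2 was not under the floor in either ovary, and Cma1 and Mcpt4 were under it in both. The 5 measured mast cell genes, with Cpa3, had a median log2 difference of 0, with 2 above 0 and 2 below. Lower were Nnat, neuronatin (246 units in the luteoma, against 931 units in the wild type), Dsp, the desmosomal protein desmoplakin (823 units in the luteoma, against 2604 units in the wild type), and Hdac5, a histone deacetylase (249 units in the luteoma, against 910.2 units in the wild type). The second Dsp probe set gave a log2 difference of -1.48. Nnat had 4180.2 units in the granulosa cell tumour.

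The hybrid luteoma and the hCG-treated CF-1 ovary, both labelled luteoma, differed in strain and treatment, and their levels are given side by side. Hsd3b1 had 1664 units in the hybrid luteoma and 39328 units in the hCG-treated ovary. Gsta3 had 6178 units in the hybrid luteoma and 5043 units in the hCG-treated ovary. Ptgds had 14122 units in the hybrid luteoma and 1653 units in the hCG-treated ovary.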
